A study of Rattus norvegicus with 12 samples.

Results

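Semaphorins are guidance ligands, and plexins and neuropilins are the receptors that bind them. A list of 9 of these genes with roles in the migration of oligodendrocyte precursor cells (OPCs) was looked up by symbol in the deposited table. All 9 were found among its 30562 gene rows, each under 1 row. They are 4 ligands (Sema4d, Sema5a, Sema6a and Sema6d), 3 plexins (Plxnb1, Plxnb3 and Plxna4) and both neuropilins (Nrp1 and Nrp2). The libraries were made from OPCs of the cerebral cortex of newborn wild-type Sprague-Dawley rats, purified by shaking from mixed glia. The cells of 6 libraries had been exposed to 5% FiO2, for 6 hours by the labels and for 6 days by the study's methods, and are called mild-hypo-OPCs. Those of the other 6 had been kept in room air and are called standard OPCs. All 12 came from WT cells expanded in medium with the growth factors FGF-2 and PDGF-AA, and the labels do not say whether libraries of a group came from separate cultures, so p-values measure the spread between libraries, which may be technical.

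Semaphorins steer growing axons and moving cells by attraction or repulsion, and most of the transmembrane classes bind plexins directly, whereas secreted class 3 semaphorins bind a neuropilin that passes the signal through an A-type plexin. Activated plexins act on small GTPases and on the cytoskeleton. OPCs carry these receptors and travel long distances through the brain before they differentiate, and several semaphorins are known to attract or repel them.

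Of the 9 genes, Sema4d and Sema6a were higher in mild-hypo-OPCs, none was lower, 5 did not pass the test, and Nrp1 and Nrp2 had too few counts to be tested. Sema4d was 1.47-fold higher (95% interval 1.24 to 1.73) and Sema6a 1.3-fold higher (1.09 to 1.55), both with n = 6 libraries per group. The other ligands, Sema5a and Sema6d, gave fold intervals of 0.870 to 1.12 and 0.906 to 1.20. The receptors that these ligands are known to bind, Plxnb1, Plxnb3 and Plxna4, did not pass. Genes were tested with edgeR's quasi-likelihood test over the 8938 genes that had a level above 10 CPM (counts scaled to one common library total) in at least 1 library, with Benjamini-Hochberg adjustment at 0.05. Over all tested genes 7.00% were called higher and 17.0% lower. The 2 higher calls among 7 tested semaphorins and plexins of the list stand beside that background as a description. The 0 lower calls among them came from edgeR, limma-voom and DESeq2 alike, and 0 had a lower value at an unadjusted p under 0.05.

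Depth differed between the groups. Mild-hypo-OPC libraries held 4111669 to 9022324 counts and standard OPC libraries 1356079 to 2797513, so the condition and the depth cannot be told apart. Ribosomal RNA and ribosomal protein genes took 14.8% to 19.4% of the counts of the former and 19.5% to 30.2% of those of the latter. OPC markers such as Pdgfra, Sox10 and Olig2 were present in every library, with a summed level of 3726 to 4326 CPM against 3083 to 3827 CPM, and 1 of 7 was called higher. The summed level of 8 myelinating oligodendrocyte markers was 12410 to 13890 CPM against 8535 to 12310 CPM, without overlap. Of the 7 tested, 4 were called higher, beside 7.00% of all tested genes. Mbp made up the largest part of the sum (means 7132 and 5851 CPM). Its libraries overlapped between the groups and it was not called (adjusted p = 0.0555 in edgeR). Microglial markers (8 genes) summed to 39.8 to 55.4 CPM against 23.9 to 39.4 CPM, also without overlap. Only 2 were tested, Csf1r and Cd68, and 2 were called higher. Aif1 and Ptprc, not tested, had lower means in mild-hypo-OPCs. Neuronal markers (8 genes) summed to 240.1 to 264.2 CPM against 175.9 to 221.3 CPM, again without overlap. Of the 5 tested, 1 was called higher, Tubb3 (means 98.9 and 59.4 CPM). Dcx, the largest part of the sum, had means of 106.3 and 101.9 CPM. Rbfox3 and Gad2, not tested, had lower means in mild-hypo-OPCs. Astrocyte markers (7 genes) summed to 662.8 to 780.6 CPM against 627.8 to 721.4 CPM, with overlap. Of the 6 tested, 1 was called higher, Aqp4 (53.3 to 73.4 CPM against 23.4 to 48.0 CPM). These calls stand beside 7.00% of all tested genes. Of 4 endothelial markers, Cdh5, Tek and Emcn were at 0 in every library, and Pecam1 had at most 1 count. The 7 mesenchymal and mural markers summed to 0.996 to 3.02 CPM against 0 to 1.999 CPM. The part of these other cells in the results below was not tested, and in such bulk libraries fewer cells of a type and less RNA per cell cannot be told apart.

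Promoter sequence is shown first, because HIF factors, which respond to low oxygen, are known to bind DNA at a short core. The 250 bases before the start of each gene were read from RefSeq on the GRCr8 assembly, and the motifs ACGTG and GCGTG, the forms of that core, were searched on both strands. These are letters only, and no binding was measured. A promoter was found for 6 of the 9 genes (Sema6a, Sema6d, Plxnb1, Plxnb3, Nrp1 and Nrp2) and for 23 of the 31 semaphorin, plexin and neuropilin genes listed. At least 1 match lay in 3 of the 6 (Sema6d, Nrp1 and Nrp2), in 12 of the 23, and in 36.7% of 33469 promoters of this length. GCGTG alone occurred in 25.9% of all promoters and ACGTG in 16.6%. The promoters of Sema6a, Plxnb1 and Plxnb3 held none. Their G and C bases made up 52.0%, 78.0% and 50.8%, against 70.4% in Sema6d, 66.4% in Nrp1 and 52.8% in Nrp2. The part of base content in the number of matches was not tested. Capitals mark the matches in 3 promoters that are printed as a contrast. Sema6a was higher and had no match, and Sema6d had 2 matches and did not pass the test. Plxnd1, a further receptor with 83.2% G and C bases, was called higher and had 4. It passed the 10 CPM filter only through 2 mild-hypo-OPC libraries, which favoured that direction. Limma-voom did not call it (adjusted p = 0.126).
Sema6a, chr18:42358541-42358790, minus strand: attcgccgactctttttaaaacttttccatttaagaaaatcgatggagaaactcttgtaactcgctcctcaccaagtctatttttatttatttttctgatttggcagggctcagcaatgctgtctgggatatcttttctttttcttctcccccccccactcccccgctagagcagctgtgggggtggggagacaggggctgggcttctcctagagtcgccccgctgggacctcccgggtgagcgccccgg
Sema6d, chr3:132337106-132337355, plus strand: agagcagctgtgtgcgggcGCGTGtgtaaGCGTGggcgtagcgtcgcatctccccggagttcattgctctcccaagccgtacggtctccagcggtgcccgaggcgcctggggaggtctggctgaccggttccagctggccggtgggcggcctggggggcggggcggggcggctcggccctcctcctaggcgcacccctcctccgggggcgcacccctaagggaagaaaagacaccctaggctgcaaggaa
Plxnd1, chr4:150715188-150715437, minus strand: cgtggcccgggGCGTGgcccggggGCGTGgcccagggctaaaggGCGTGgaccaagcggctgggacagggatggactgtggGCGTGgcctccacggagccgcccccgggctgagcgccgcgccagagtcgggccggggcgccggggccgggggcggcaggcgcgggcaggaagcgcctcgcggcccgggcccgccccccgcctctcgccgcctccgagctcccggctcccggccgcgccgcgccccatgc
In Sema6d the first bases of the matches lay 231 and 221 bases before the start, and in Plxnd1 they lay 239, 226, 206 and 169 bases before it. The single matches of Nrp1 and Nrp2 began 158 and 194 bases before the start.

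**Figure D1:**
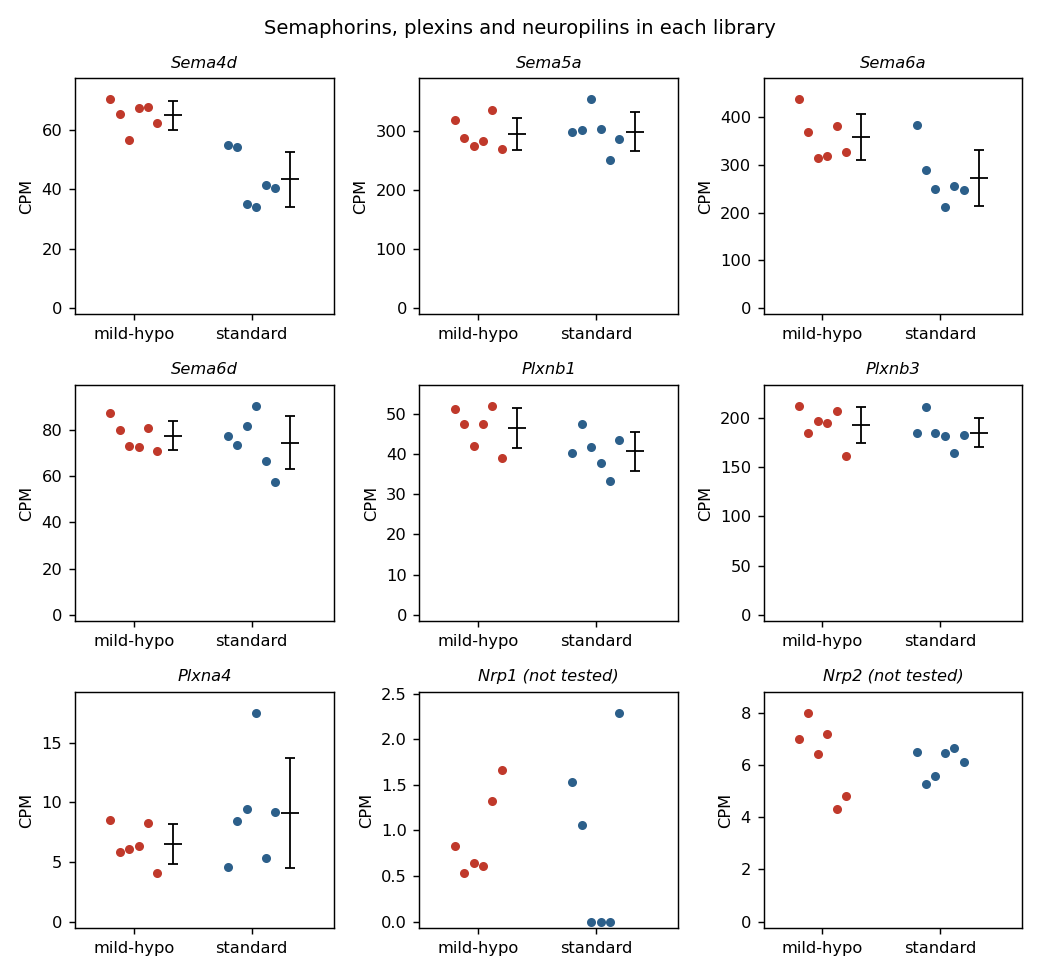
CPM of the 9 genes in each of the 12 libraries (red, mild-hypo-OPC; blue, standard OPC; 6 points per group, linear axes), with mean and SD beside the points for the 7 tested genes. The Sema4d points of the groups do not overlap, those of Sema6a overlap through 1 standard library at 383.1 CPM, and the other panels overlap widely.

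Sema4d (ENSRNOG00000013679) encodes a transmembrane class 4 semaphorin that oligodendrocytes are known to make and that binds plexin-B1. Its level was lowest at 56.5, median 66.4 and highest at 70.3 CPM in mild-hypo-OPCs, and lowest at 34.1, median 40.9 and highest at 55.1 CPM in standard OPCs. All 6 mild-hypo-OPC libraries therefore lay above all 6 standard libraries, a separation found in 2.94% of all tested genes. The means were 64.9 ± 4.91 and 43.4 ± 9.24 CPM (SD, n = 6 each), a log2 fold change of 0.55 ± 0.11 (SE) with an adjusted p of 0.0017 in edgeR's quasi-likelihood test. Standard replicates 1 and 2, at 55.1 and 54.4 CPM, stood above the other 4, which reached at most 41.3 CPM. Within each group replicate 1 was both the deepest library and the highest in Sema4d. The next deepest of its group was standard replicate 2 in standard OPCs and replicate 3 in mild-hypo-OPCs, the latter being the lowest of its group. The part of depth in this order was not tested. The mild-hypo-OPC libraries had a coefficient of variation of 7.57% against 21.3% in the standard libraries. Counts behind Sema4d ran from 329 to 674 in the former and from 37 to 144 in the latter. It stayed higher when any 1 library was left out (log2 fold change 0.49 to 0.64) and when every library was thinned to the smallest total (0.71, adjusted p = 0.0146). The call was lost when the log2 total entered the fit as a covariate (0.21, adjusted p = 0.902) and with replicates 1 to 3 of each group only (0.42, adjusted p = 0.139).

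Sema6a (ENSRNOG00000004033), a transmembrane class 6 semaphorin that binds plexin-A2 and plexin-A4 and is known in the differentiation of oligodendrocytes, had a minimum of 314.0, a median of 348.0 and a maximum of 438.0 CPM in mild-hypo-OPCs. The standard libraries had a minimum of 212.6, a median of 253.0 and a maximum of 383.1 CPM. The groups overlapped through standard replicate 1 alone, since the next standard library was at 289.4 CPM, below all 6 mild-hypo-OPC libraries. The means were 358.0 ± 48.2 and 273.2 ± 59.1 CPM (SD, n = 6 each), a log2 fold change of 0.38 ± 0.12 (SE) with an adjusted p of 0.0260 in edgeR's quasi-likelihood test. Within mild-hypo-OPCs, replicate 1 was both the deepest library and the highest in Sema6a, and within standard OPCs replicate 1 was also the deepest and the highest. Leaving out single libraries in turn, Sema6a passed in 8 of 12 cases. With standard replicate 3, 4, 5 or 6 removed, the adjusted p was 0.0605, 0.0643, 0.0535 and 0.0607. The call was lost after thinning (0.39, adjusted p = 0.0713) and in replicates 1 to 3 (0.29, adjusted p = 0.303), and when the log2 total was a covariate the direction turned (-0.34, adjusted p = 0.677).

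Sema5a (ENSRNOG00000011977), a transmembrane semaphorin with thrombospondin repeats that binds plexin-B3, was at 270.5 to 336.5 CPM (median 285.6) in mild-hypo-OPCs and at 251.3 to 354.2 CPM (median 300.1) in standard OPCs. The mild-hypo-OPC range lay inside the standard range. Its means were 295.3 ± 26.5 and 299.4 ± 33.3 CPM, a log2 fold change of -0.02 (95% interval -0.20 to 0.16, adjusted p = 0.893). Sema6d (ENSRNOG00000004812), a class 6 ligand of plexin-A1, was at 70.8 to 87.4 CPM (median 76.4) against 57.3 to 90.2 CPM (median 75.3). Again the standard libraries enclosed the mild-hypo-OPC libraries, and the log2 fold change was 0.06 (-0.14 to 0.26, adjusted p = 0.694). For both ligands these intervals leave out a change of the size measured for Sema4d.

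Plxnb1 (ENSRNOG00000029510), the plexin-B1 receptor of Sema4d, ranged from 39.1 to 51.9 CPM (median 47.5) in mild-hypo-OPCs and from 33.3 to 47.5 CPM (median 40.9) in standard OPCs. The means were 46.5 ± 5.05 and 40.7 ± 4.88 CPM, and the log2 fold change of 0.19 (95% interval -0.02 to 0.40) had an adjusted p of 0.192. The groups overlapped, and the interval still holds changes from none to about that of Sema6a. Plxnb3 (ENSRNOG00000061731), the plexin-B3 receptor of Sema5a, ranged from 161.1 to 212.2 CPM (median 195.8) against 164.6 to 211.2 CPM (median 183.8). Its log2 fold change was 0.06 (-0.12 to 0.23, adjusted p = 0.655), so both partners of this pair gave intervals around 0.

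Plxna4 (ENSRNOG00000013072), the plexin-A4 receptor that binds Sema6a directly and Sema3a together with Nrp1, had few reads. Each mild-hypo-OPC library held 22 to 82 counts of it and each standard library 8 to 19. Plxna4 passed the filter on low values, which used unscaled library totals unlike the levels given here, through 1 library of each group. The level was 4.06 to 8.55 CPM (median 6.23) against 4.59 to 17.5 CPM (median 8.81), the highest value being that of standard replicate 4. The log2 fold change of -0.34 (95% interval -0.92 to 0.24, adjusted p = 0.403) moved to -0.11 without that library. A fall of Plxna4 as large as the rise of Sema4d lies inside that interval.

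Nrp1 (ENSRNOG00000010744) and Nrp2 (ENSRNOG00000031232) encode the co-receptors of class 3 semaphorins, which also bind VEGF. Nrp1 counts were 3 to 9 with mild hypoxia and 0 to 4 without. Its 3 zeros, in standard replicates 3, 4 and 5, allow up to 1.34, 2.21 and 1.80 CPM by a floor of 3 counts over the unscaled library total. This floor covers counting error only. The mild-hypo-OPC libraries were at 0.533 to 1.66 CPM by scaled totals, on which the floors of standard replicates 3, 4 and 5 would be higher. Nrp2 had 26 to 67 counts against 7 to 17. Its level was 4.31 to 7.99 CPM (median 6.71) in mild-hypo-OPCs and 5.28 to 6.67 CPM (median 6.27) in standard OPCs, with the standard libraries inside the mild-hypo-OPC range. With no filter on low counts, the log2 fold change was 0.12 ± 0.62 (SE, adjusted p = 0.924) for Nrp1 and 0.09 ± 0.23 (adjusted p = 0.837) for Nrp2. Nrp1 was thus near the limit of detection in both groups. Nrp2 was detected in every library but stayed below the filter on low values.

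Ratios of the counts of 2 genes within a library do not depend on the library total or on the scaling, and they are given as descriptions without a test, because the pairs were picked with results known. The ratio of Sema4d to its receptor Plxnb1 was 1.3 to 1.59 (median 1.38) in mild-hypo-OPCs and 0.840 to 1.37 (median 1.03) in standard OPCs, with 4 mild-hypo-OPC libraries above every standard library. For Sema5a and its receptor Plxnb3 the ratio was 1.39 to 1.68 (median 1.53) against 1.43 to 1.91 (median 1.59). In the first pair the ratio was higher in most mild-hypo-OPC libraries, and in the second the groups overlapped. Between the ligands, Sema4d to Sema5a was 0.201 to 0.238 against 0.0989 to 0.184, with all 6 mild-hypo-OPC libraries above all standard ones. Sema6a to Sema5a was 1.12 to 1.37 against 0.698 to 1.28, with overlap, and Sema4d to Sema6a was 0.161 to 0.212 against 0.140 to 0.188, also with overlap. The proportion of Sema4d to Sema6a therefore differed less between the groups than that of Sema4d to Sema5a. The ratio of Sema6a to Plxna4 spread widely in standard OPCs (12.2 to 83.5, against 46.1 to 80.6), where Plxna4 had few counts. Sema6d to Plxna1 was 1.6 to 1.85 against 1.34 to 2.38, and Plxnb1 to Plxnb3 was 0.214 to 0.257 against 0.202 to 0.238, with 5 mild-hypo-OPC libraries above every standard library.

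**Figure D2:**
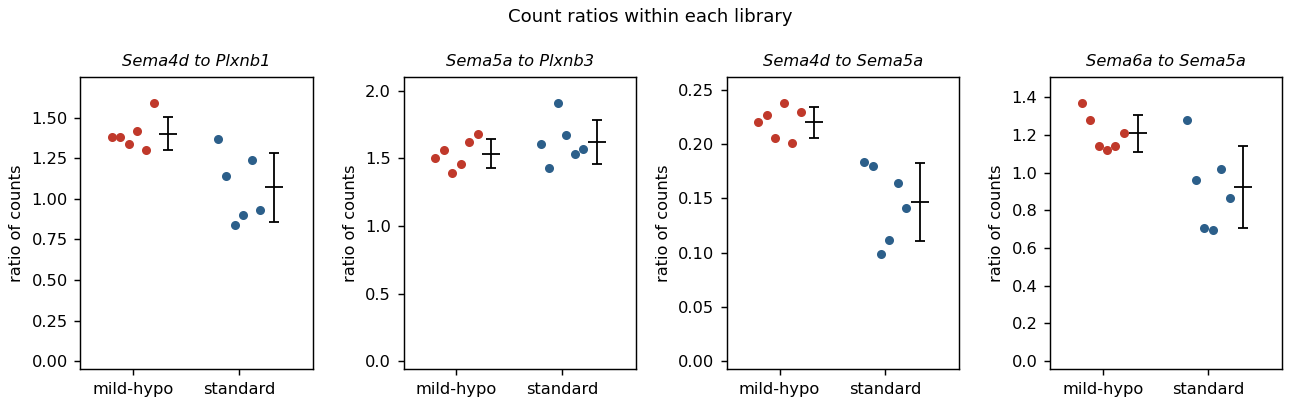
Ratio of the raw counts of 2 genes in each library (vertical axes, no unit; red, mild-hypo-OPC; blue, standard OPC; 6 points per group with mean and SD). The ratio of Sema4d to Sema5a is at least 0.201 in mild-hypo-OPCs and at most 0.184 in standard OPCs, whereas the ratio of Sema5a to Plxnb3 overlaps.

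The other 22 semaphorin and plexin genes in the table show how far the pattern of Sema4d and Sema6a extends. Of these, 13 were tested, 3 were called higher and 0 lower by edgeR, and the median log2 fold change was 0.17, against -0.003 over all tested genes. Over the 3 families together, 20 of 31 genes were tested, 5 were called higher, 0 were lower, and 18 had a positive log2 fold change. Of all tested genes, 7.00% were called higher and 17.0% lower. An unadjusted p under 0.05 was reached by 6 genes with a higher value and 0 with a lower one. Shares over all genes were not worked out for positive values or for this threshold. Limma-voom and DESeq2 also called 0 lower. These counts depend on the scaling: with library size only, the median of all genes moved to 0.43 and 19 of the 20 genes were called higher.

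Sema3c, a secreted class 3 semaphorin that signals through neuropilins and plexin-D1, had the smallest adjusted p of these 13. It was at 25.1 to 31.5 CPM (median 28.1) in mild-hypo-OPCs and 12 to 23.4 CPM (median 18.2) in standard OPCs, without overlap. The means of 28 ± 2.56 and 18.1 ± 4.38 CPM gave a log2 fold change of 0.62 ± 0.14 (SE, adjusted p = 0.00283). The call for Sema3c held when any 1 library was left out (0.53 to 0.70) but was lost after thinning (0.72, adjusted p = 0.0640) and when the log2 total was a covariate (0.31, adjusted p = 0.866). Sema5b, the closest relative of Sema5a, was at 155.7 to 177.8 CPM against 102.0 to 162.9 CPM, with overlap. Its log2 fold change was 0.30 ± 0.10 (SE, adjusted p = 0.0283), and the call was lost without standard replicate 3, 4 or 5 (adjusted p = 0.0663, 0.0578 and 0.0605). The call for Sema5b was also lost after thinning (0.32, adjusted p = 0.107) and in replicates 1 to 3 (0.20, adjusted p = 0.363). With the log2 total as a covariate its value was 0.07 (adjusted p = 0.973).

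Plxnd1, the receptor of Sema3e, was at 5.33 to 10.3 CPM against 3.33 to 5.52 CPM and had 26 to 74 counts in the former libraries and 5 to 14 in the latter. It passed the filter only through 2 mild-hypo-OPC libraries, so a difference in this direction was favoured by the filter itself. The log2 fold change was 0.69 ± 0.25 (SE, adjusted p = 0.0479). The call for Plxnd1 was lost in limma-voom (adjusted p = 0.126) and in 10 of 12 cases when single libraries were removed.

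The other tested semaphorins did not pass. Among the secreted class 3 ligands, the log2 fold change was 0.10 for Sema3a (adjusted p = 0.612), 0.10 for Sema3d (0.483) and 0.11 for Sema3e (0.574). Sema4c, of the same class as Sema4d, had 0.24 (95% interval 0.003 to 0.47) with an adjusted p of 0.133. Sema6b, of the class of Sema6a, had 0.18 (0.441), and the membrane-anchored Sema7a had 0.14 (0.440). Of the A-type plexins, which serve class 3 and class 6 ligands, Plxna1 had 0.12 (0.486), Plxna2 0.19 (0.540) and Plxna3 0.17 (0.305), and Plxnb2, a B-type plexin that binds class 4 ligands, had 0.16 (0.296). Of the A-type plexins, Plxna1 to Plxna3 thus had values between 0.12 and 0.19 and Plxna4 had -0.34, and none passed.

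The 9 other genes below the filter on low values had few counts. In mild-hypo-OPCs and standard OPCs respectively, Sema4a held 18 to 29 and 1 to 8 counts, Sema4b 23 to 44 and 0 to 15, Sema4g 20 to 58 and 1 to 13, and Sema6c 11 to 18 and 0 to 7. Plxnc1, the receptor of Sema7a, held 18 to 59 and 2 to 10. Sema3b, Sema3g and Sema4f had at most 5 counts in any library. Sema3f, a ligand of Nrp2 known to attract OPCs, had at most 5 counts in any mild-hypo-OPC library and 0 in all 6 standard libraries, so no fold change is given.

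**Figure D3:**
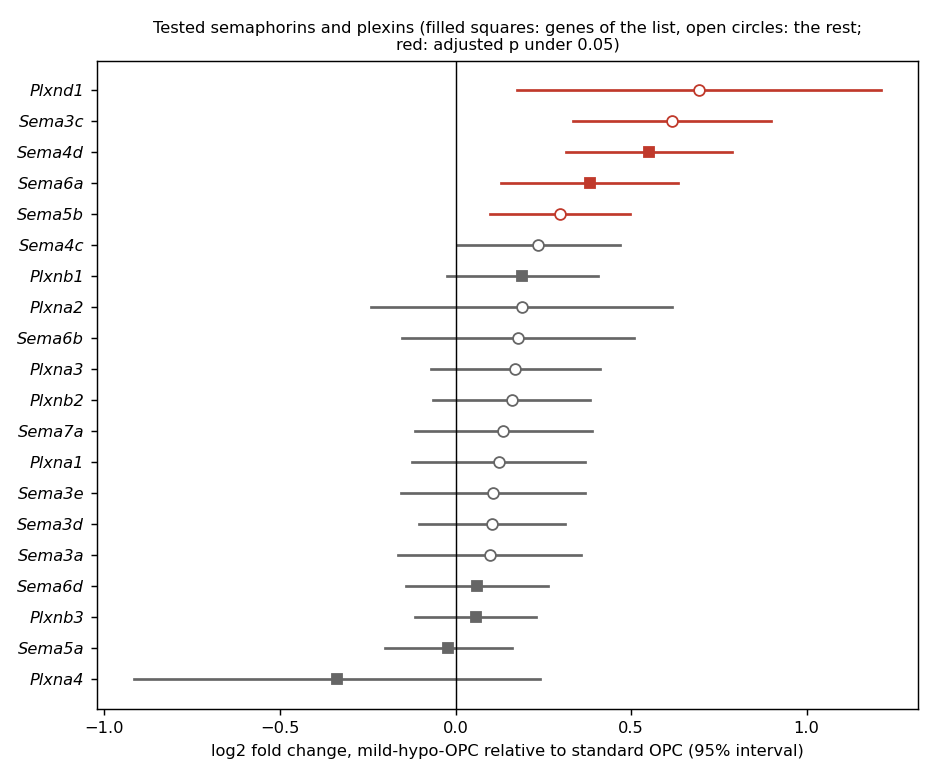
Log2 fold change of mild-hypo-OPCs over standard OPCs with its 95% interval for the 20 tested semaphorins and plexins (filled squares, the 7 tested genes of the list; open circles, the 13 others; red, adjusted p under 0.05 in edgeR). The 5 genes called higher run from 0.30 (Sema5b) to 0.69 (Plxnd1), and Sema5a and Plxna4 are the 2 with values below 0.

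Plexin signals end in the cytoplasm, and 43 genes of that machinery were listed, of which 38 were tested. Of these, 5 were called higher, 5 lower and 28 did not pass, with a median log2 fold change of 0.07, beside 7.00% higher and 17.0% lower over all tested genes. The higher ones included 4 of the collapsin response mediator proteins, the tubulin-binding family that carries the response to Sema3a. Dpysl5 rose most, from 7.56 ± 1.88 to 16.5 ± 1.58 CPM (SD, n = 6 each), a log2 fold change of 1.09 (adjusted p = 0.00019). Its libraries did not overlap, a separation found in 2.94% of all tested genes. Dpysl5 passed the filter on low values through the mild-hypo-OPC libraries only, which favoured this direction. Crmp1 was at 85.6 to 97.2 CPM against 51.7 to 81.3 CPM (0.40, adjusted p = 0.0038), also without overlap. Dpysl4 (0.27, adjusted p = 0.0102) and Dpysl3 (0.26, adjusted p = 0.0176) rose less, and Dpysl2 did not pass. Several of these proteins are also known as products of young neurons. The neuronal marker Tubb3 was higher as well (0.72, adjusted p = 0.000181), Dcx was not called (0.07, adjusted p = 0.682), and the part of neurons in the rise of Dpysl5 and Crmp1 was not tested.

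Cdk5 and its activator Cdk5r1, a kinase pair that phosphorylates these proteins, moved apart. Cdk5r1 was higher (0.60, adjusted p = 0.0107) and Cdk5 lower (-0.38, adjusted p = 0.0475), each with overlapping libraries. Cdk5r1 was called in all 12 cases with 1 library removed. Cdk5 was called in 2 of them, those of standard replicate 1 and mild-hypo-OPC replicate 6, and otherwise had an adjusted p of 0.0533 to 0.141. Lower genes also included Farp2, the exchange factor that A-type plexins use (19.2 to 25.2 CPM against 30.1 to 46.0 CPM, -0.55, adjusted p = 0.00248). Its libraries did not overlap, a separation in this direction found in 5.40% of all tested genes. The GTPases Rap1b (-0.44, adjusted p = 0.00653) and Rap1a (-0.42, adjusted p = 0.00792), which plexins inactivate as GTPase-activating proteins, were lower, Rap1b without overlap. Rnd2, another small GTPase, was lower too (-0.34, adjusted p = 0.0193), but lost the call when standard replicate 6 or mild-hypo-OPC replicate 1, 2, 4 or 5 was removed (adjusted p = 0.0519 to 0.0757). With library size alone as the scaling the values of Cdk5, Rap1a and Rnd2 turned to 0.06, 0.02 and 0.09, so their direction depends on the scaling. Under that scaling 0 signalling genes were called lower, so the calls of Farp2 and Rap1b were lost as well. Over all 26 alternatives Rap1b ran from -0.585 to -0.000252 and Farp2 from -0.652 to -0.119. Fyn, the Src-family kinase that acts below plexin-A receptors and in myelination, was at 760.7 ± 26.8 and 722.5 ± 83.7 CPM (0.07, adjusted p = 0.557).

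**Figure D4:**
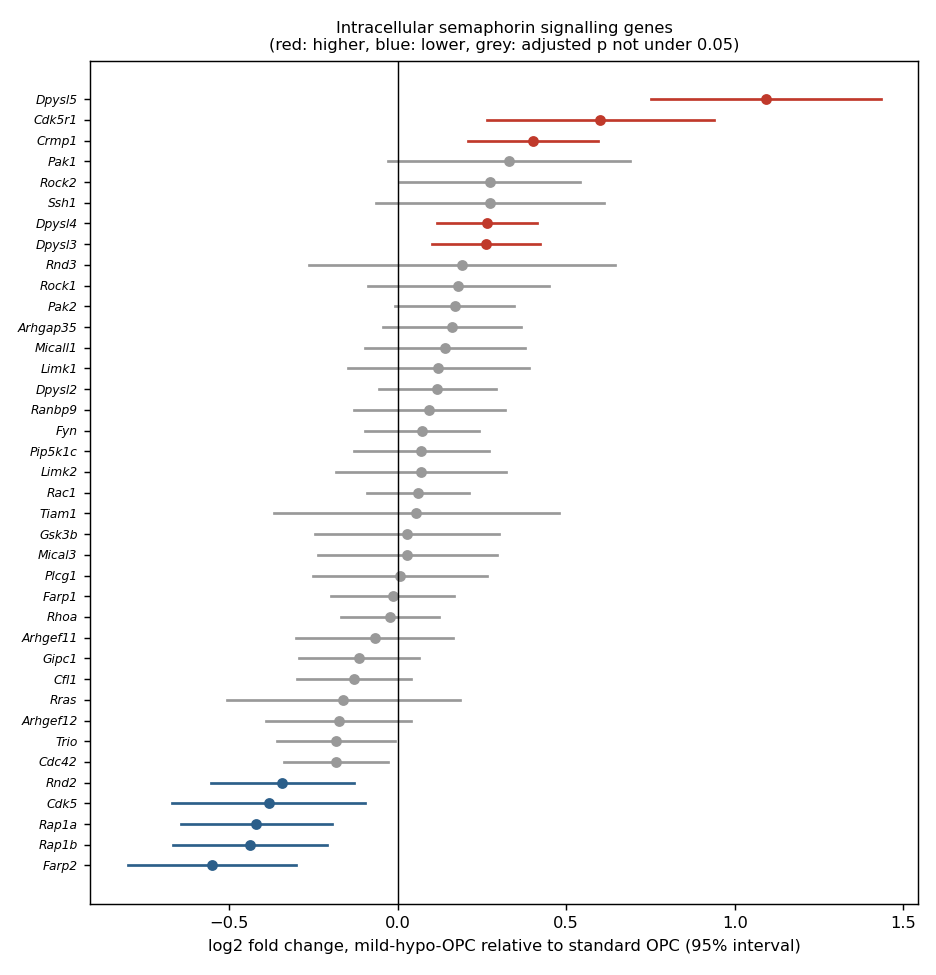
Log2 fold change of mild-hypo-OPCs over standard OPCs with its 95% interval for the 38 tested genes of intracellular semaphorin signalling, ordered by value (red, called higher; blue, called lower; grey, adjusted p not under 0.05). Dpysl5 stands highest at 1.09 and Farp2 lowest at -0.55, with 5 genes called in each direction.

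Of 17 further partners of semaphorin receptors, 10 were tested. Of these, 3 were called higher and 1 lower, beside 7.00% and 17.0% of all tested genes. The integrin subunit Itgb1, a receptor for Sema7a, was higher (0.25, adjusted p = 0.0243), as were the heparan sulphate proteoglycan Gpc1 (0.38, adjusted p = 0.0130) and the receptor phosphatase Ptprf (0.38, adjusted p = 0.0235). Itgb1 lost the call without standard replicate 4, 5 or 6 (adjusted p = 0.0501 to 0.059), and Ptprf without standard replicate 3, 4 or 6 (0.0524 to 0.0668). Vegfb, a VEGF family ligand of Nrp1, was lower in all 6 mild-hypo-OPC libraries than in any standard library (28.9 to 34.7 CPM against 37.5 to 60.3 CPM, log2 fold change -0.47, adjusted p = 0.00302), a separation found in 5.40% of tested genes. Vegfa, the main VEGF ligand of neuropilins and a known hypoxia target, was at 14.0 ± 1.57 and 15.5 ± 4.43 CPM (-0.19, adjusted p = 0.440). L1cam, a co-receptor with Nrp1 for Sema3a, held 3 to 10 counts against 0 to 1 and was not tested.

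Among 44 genes of the other guidance families (netrins, slits, ephrins, repulsive guidance molecules and their receptors), 17 were tested. Of these, 4 were called higher and 1 lower, beside 7.00% and 17.0% of all tested genes. Their median log2 fold change was 0.21. Ephb1 (0.47, adjusted p = 0.00416), Rgmb (0.63, adjusted p = 0.0152), Efnb3 (0.81, adjusted p = 0.0237) and Unc5b (0.45, adjusted p = 0.0303) were higher. Efnb3 passed the filter through 1 mild-hypo-OPC library and Rgmb through mild-hypo-OPC libraries only, which favoured this direction. Unc5b lost the call without standard replicate 3, 4 or 5 (adjusted p up to 0.0785). Dcc, the netrin receptor, was lower (-0.49, adjusted p = 0.0384). It was called in 3 of 12 cases with 1 library removed, those of standard replicates 2 and 3 and mild-hypo-OPC replicate 1, and otherwise had an adjusted p of 0.0521 to 0.102. The semaphorin and plexin shares, 5 of 20 higher and 0 lower, stand beside 4 of 17 and 1 of 17 here, and the difference between the lists was not tested.

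**Figure D5:**
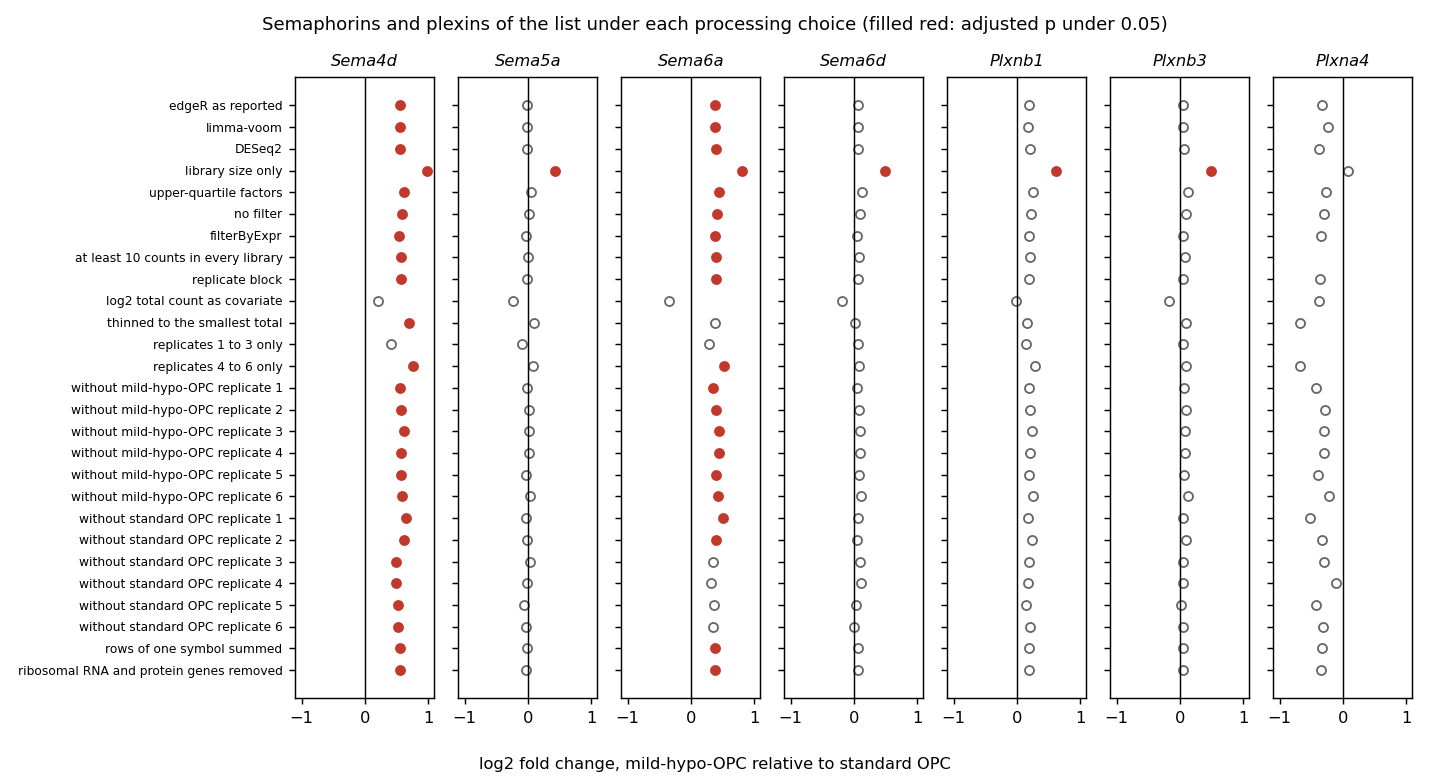
Log2 fold change of mild-hypo-OPCs over standard OPCs for the 7 tested genes of the list (panels) under the reported fit and 26 alternatives (vertical axis), of which 24 gave a value for Plxna4. Filled red points have an adjusted p under 0.05; Sema4d is filled in 24 of the 26 alternatives and Sema6a in 19, and with library size only, where the median of all genes is 0.43, 6 of the 7 are filled.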

How the data were processed

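Per the labels, RNA of 6 mild-hypo-OPC and 6 standard OPC libraries was sequenced after a strand-specific kit. The authors trimmed reads with Trimmomatic 0.36, checked them with FastQC 0.11.9, aligned them to mRatBN7.2 (STAR 2.7.9a) and estimated gene counts (RSEM 1.3.3). The deposited table holds estimated counts, already whole, without normalization; the annotation release, the strand setting and how the estimates became whole are not given in the sources used here. Where a legend gives n = 3 biological replicates per group, 6 libraries per group were deposited and used. Whether some of these 6 share a biological replicate is not stated. The 9 genes, the lists and the tests were chosen with earlier results of these data known.

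Groups came from the labels. The groups were compared with edgeR 4.0.16 under R 4.3.3 (genes with CPM above 10 in at least 1 library, TMM factors, glmQLFit and glmQLFTest, condition as the only term, Benjamini-Hochberg threshold 0.05). The CPM given use TMM-scaled library sizes, whereas the filter used unscaled library totals. TMM factors were 1.08 to 1.23 in mild-hypo-OPC and 0.809 to 0.945 in standard OPC libraries. At equal scaled CPM a gene therefore passed the filter more easily through a mild-hypo-OPC library. The SE is the one implied by the F statistic, and intervals are 95%. Levels of different genes are not compared, since no lengths were used. Limma 3.58.1 (voom, the test the study used) and DESeq2 1.42.0 were alternatives, beside other scalings, filters and subsets of libraries. The scripts were tested on simulated counts. Libraries of 1 group differed by more than sampling noise (chi-square per degree of freedom at least 3.39 over 15 pairs of mild-hypo-OPC and 4.11 over 15 pairs of standard OPC libraries). None was therefore taken as a repeat read of another, and each counted once. This check cannot show whether libraries came from separate cultures. The text names all genes of the 3 families, called genes of the other lists up to 8 per direction, and Vegfa, Fyn, L1cam and Cdk5. Proteins were not analysed here.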

Additional observations from a re-analysis of the deposited data

Results flagged for a closer look

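Among 34 groups of 6 values examined, 1 held a library far from the rest, and chance gives about 1 in 20. The count ratio of Plxnb1 to Plxnb3 in mild-hypo-OPC replicate 3 was 0.214, below the other mild-hypo-OPC libraries. Its gap to the nearest was 0.628 of the group's range, just over Dixon's critical value for 6 values. This library was not the lowest of its group in Plxnb1 (42.1 CPM) and was at 197.0 CPM in Plxnb3, and neither gene was called in edgeR.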

How the results depend on the processing

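The 2 higher calls of the list became 6 with library size only, 0 with the log2 total count as a covariate, 1 after thinning to the smallest total, 0 in replicates 1 to 3, and 1 to 2 leaving out 1 library. The 5 higher calls of the 3 families became 19, 0, 1 and 1 under the same settings and 2 to 5 leaving out 1 library. The 5 higher signalling genes became 32, 0, 2 and 1, 3 with at least 10 counts in every library, and 5 to 6 leaving out 1 library. The 5 lower ones became 0, 0, 1 and 0, 3 with upper-quartile factors, and 3 to 5 leaving out 1 library. Of 41 named genes, 6 changed sign with library size only: Sema5a (0.42), Plxna4 (0.088), Vegfa (0.24), Cdk5 (0.056), Rnd2 (0.094) and Rap1a (0.016). With the covariate 16 did, of which 5 had been called: Sema6a (-0.34), Itgb1 (-0.033), Ptprf (-0.0052), Cdk5 (0.30) and Rnd2 (0.012). The other 11, not called, included Sema6d (-0.18), Plxnb1 (-0.02) and Plxnb3 (-0.17) and ran to -0.43 (Sema3a). Over all genes 0 were then called higher and 43 lower. The cause of these shifts was not tested. Whether replicate numbers pair the libraries was not settled (correlation of deviations -0.28 to 0.30, over 0.1 in 2 of 6 pairs). With the replicate block the list had 2 higher calls, the families had 4, and all genes had 572 higher and 1471 lower. In that edgeR fit Sema6a had an adjusted p of 0.00197 and Plxnd1 one of 0.0814. Low counts limit Nrp1 (0 to 9 per library), and Nrp2 (7 to 17) and Plxna4 (8 to 19) in standard OPCs.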
